A study of Mus musculus with 9 samples.

Results

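The 10 genes described here are markers of fat cells: Retn, Adipoq, Plin1, Plin4, Fabp4, Cidec, Car3, Lpl, Pck1 and Pparg. They were chosen by symbol, out of 19937 genes that had a probe set of their own on the array. The choice drew on what is known of fat tissue and was made with earlier results of these data known. Their counts and ranks beside all probe sets therefore describe these arrays and are no independent test. Each of the 10 was read by exactly 1 probe set, so 10 of 28214 probe sets enter the account. RNA was measured in whole oviducts of CD1 female mice on 9 Affymetrix arrays. Each array carried total RNA pooled from 5 animals. None of the females had received hormones to stimulate the ovary. The immature group (3 arrays) came from sexually immature females at day 21, and the estrus group (3 arrays) and the diestrus group (3 arrays) came from sexually mature females at those stages of their own cycle; the age of the mature females was not given in the sources used here. Every value is the log2 expression level that the authors deposited, so a difference of 1 is a doubling.

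White fat cells store triglyceride in a single large lipid droplet that is coated by perilipins and enlarged by Cidec. They take up fatty acids released by lipoprotein lipase, carry them on Fabp4, and secrete hormones such as adiponectin and resistin. Their differentiation is driven by the nuclear receptor Pparg. The oviduct is a muscular tube lined by ciliated and secretory epithelium, and it hangs in the mesosalpinx, a fold of peritoneum that carries vessels and can carry fat. Most of the 10 genes are also used elsewhere. Fabp4 and Lpl are made by some endothelial cells and macrophages, Car3 by slow muscle and liver, Pck1 by liver and kidney, and Pparg by granulosa cells of the ovary.

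The array medians lay between 8.85 and 8.90, and no array was a copy of another. Of the 10 measured markers of oviduct epithelium, 8 were far above the median on all arrays, while Wnt7a (8.46 to 8.85) and Msx2 (8.06 to 8.46) lay below it on all 9. Pax8, a transcription factor of the reproductive tract epithelium, lay between 11.76 and 12.23, and Foxj1, the regulator of motile cilia, between 10.98 and 11.67. Several arrays stood apart in markers of other tissue. The 9 measured ovary markers averaged 1.05 above their own medians on immature 2, 1.48 on diestrus 2 and 0.55 on diestrus 3. On diestrus 3, smooth muscle markers averaged 0.72, macrophage markers 0.48 and endothelial markers 0.40 above their medians. Immature 1 stood apart in the fat cell genes, as follows.

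Immature 1 was the highest of the 9 arrays for 6 of the 10 genes, namely Retn, Adipoq, Fabp4, Car3, Lpl and Cidec. Immature 2 was second for 5 of the 10 and highest for Plin1. Set against each gene's own median over the 9 arrays, the 10 genes averaged 0.59 higher on immature 1, 0.36 higher on immature 2 and 0.00 on immature 3. The same average ran from -0.12 to 0.01 on the estrus arrays and was -0.05, -0.24 and 0.13 on diestrus 1, 2 and 3. No member passed the test in any comparison between groups. In bulk RNA, a change in the number of fat cells and a change in RNA per fat cell cannot be told apart.

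**Figure D1:**
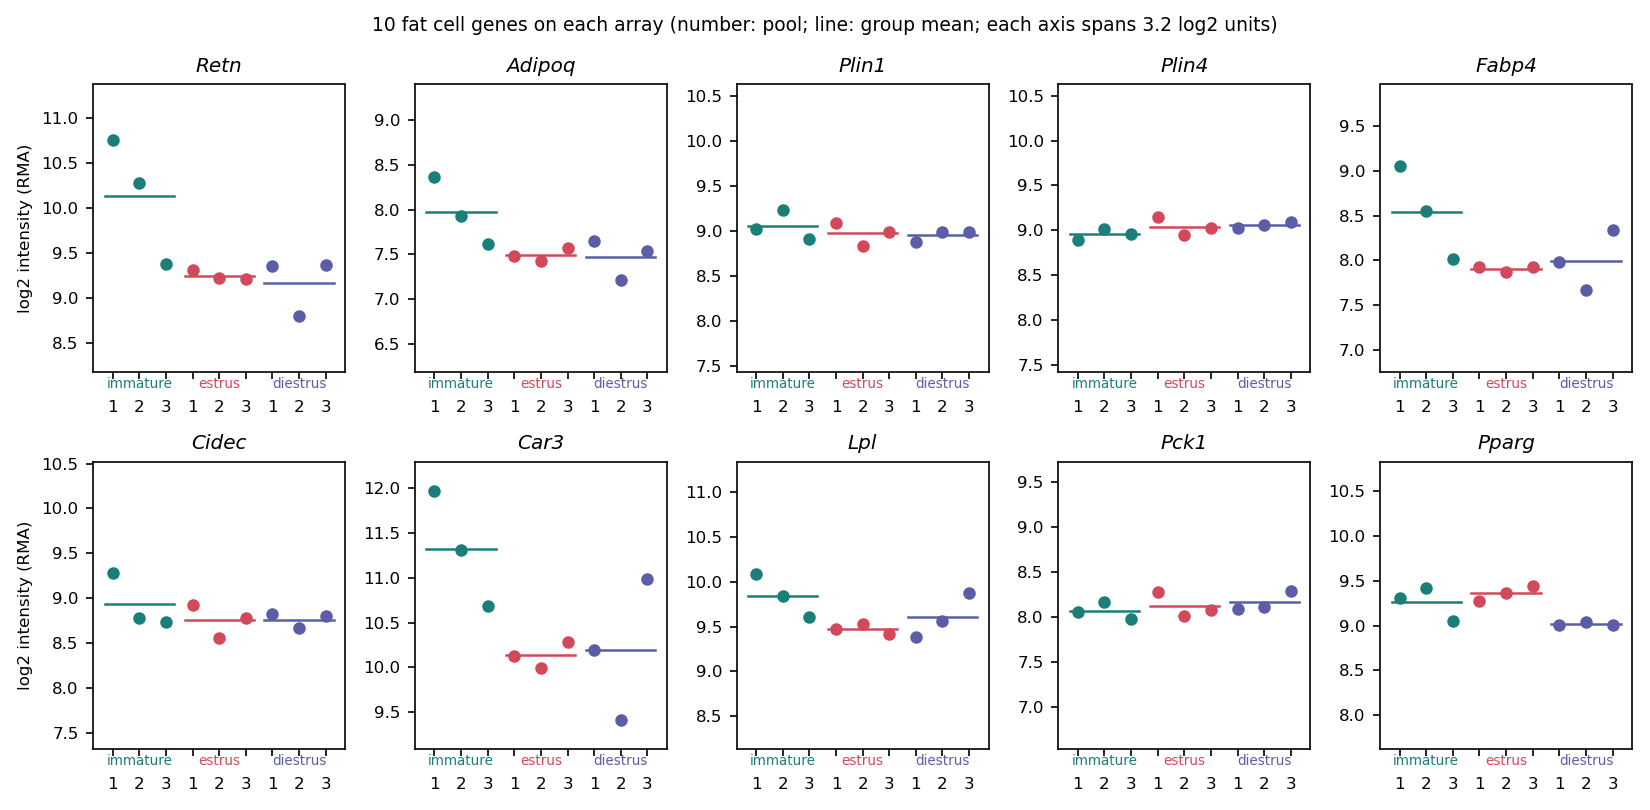
Deposited log2 level of each of the 10 fat cell genes (one panel per gene) on each of the 9 arrays, with points for single pools, lines for group means and axes of equal span. Immature 1 is the top point for 6 genes, while Plin4 is lowest there at 8.90.

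Retn and Adipoq encode secreted hormones. Retn encodes resistin, made by white fat cells in the mouse. Retn stood at 10.76, 10.28 and 9.38 on immature 1, 2 and 3, at 9.31, 9.22 and 9.21 on the estrus arrays, and at 9.36, 8.79 and 9.36 on the diestrus arrays. The 3 immature arrays lay above all 6 mature arrays, although immature 3 and the highest mature array, diestrus 3, were nearly equal. Retn on immature 1 was 2.61-fold the level on immature 3, and on immature 2 it was 1.87-fold. Adipoq encodes adiponectin, which is made almost only by fat cells. It stood at 8.37, 7.92 and 7.62 on the immature arrays, at 7.48, 7.43 and 7.57 in estrus, and at 7.66, 7.22 and 7.54 in diestrus. Diestrus 1 lay above immature 3, so the immature and diestrus groups overlapped. Adipoq was below the lower quartile of its array on 6 arrays and below the median on the other 3. Its differences thus lie in the lower part of the scale. Its range over the 9 arrays was 1.15, at the 98.3 percentile of all probe sets.

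To show how the secreted markers that followed the same arrays, and a droplet gene that did not, read upstream, 250 bases before the start of Retn (chr8:3655520-3655769, plus strand), Adipoq (chr16:23146286-23146535, plus strand) and Plin1 (chr7:79732777-79733026, minus strand) are printed 5′ to 3′ from RefSeq, build GRCm38.p6. Capitals mark matches to a searched motif on either strand.
Retn: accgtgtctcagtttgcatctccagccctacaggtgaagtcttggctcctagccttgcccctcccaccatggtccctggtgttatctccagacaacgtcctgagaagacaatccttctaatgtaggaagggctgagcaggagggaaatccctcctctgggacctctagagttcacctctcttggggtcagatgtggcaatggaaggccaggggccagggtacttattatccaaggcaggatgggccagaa
Adipoq: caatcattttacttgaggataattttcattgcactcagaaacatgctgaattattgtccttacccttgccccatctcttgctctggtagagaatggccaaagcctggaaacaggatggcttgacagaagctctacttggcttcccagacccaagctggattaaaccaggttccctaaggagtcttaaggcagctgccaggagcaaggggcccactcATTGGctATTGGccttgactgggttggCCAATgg
Plin1: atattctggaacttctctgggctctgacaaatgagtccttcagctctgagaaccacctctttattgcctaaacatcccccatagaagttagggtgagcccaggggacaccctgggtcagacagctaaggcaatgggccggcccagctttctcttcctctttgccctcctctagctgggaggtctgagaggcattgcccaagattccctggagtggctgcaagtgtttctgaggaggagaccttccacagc
Sequence was at hand for 7 of the 10 genes, in 10 promoter windows. The CCAAT box occurred in 4 of the 10 windows, against 33.8% of 32851 windows of the same length over all genes, and it accounts for all the capitals in Adipoq, at 7, 27 and 34 bases before the start. TATAAA was found in 1 of 10 windows, against 12.4% of all. The nuclear receptor half-site AGGTCA was in 2 of 10, against 14% of all. These TATAAA and AGGTCA windows all belong to Pparg, which has several of the 10 windows. The CCAAT windows belong to Adipoq, Plin4 and Pparg. A direct repeat of AGGTCA with 1 base between the copies, the form bound by Pparg with its partner, was in 0 of 10 windows and in 0.0335% of all. TTGCNNCAA, a form read by C/EBP factors, was in 0 of 10 and in 1.74% of all. AGGTCA matches include those within the direct repeat. The windows of Retn and Plin1 held none of these letters, which says nothing of what binds there.

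Fabp4, Lpl and Car3 were, like Retn and Adipoq, highest on immature 1. Fabp4 and Car3 were also lowest on diestrus 2, as Retn and Adipoq were, while Lpl was lowest on diestrus 1. Fabp4, the fatty acid carrier of fat cells, stood at 9.05, 8.55 and 8.02 on the immature arrays, at 7.93, 7.87 and 7.93 in estrus, and at 7.99, 7.67 and 8.34 in diestrus. Diestrus 3 lay above immature 3, and the estrus arrays all lay below the immature ones. Lpl, which frees fatty acids from circulating lipoproteins, stood at 10.09, 9.84 and 9.60 on the immature arrays, at 9.47, 9.52 and 9.41 in estrus, and at 9.38, 9.56 and 9.88 in diestrus. Its second highest value was that of diestrus 3, above immature 2 and 3. Car3 encodes a cytosolic carbonic anhydrase that is abundant in mouse white fat. It stood at 11.97, 11.31 and 10.69 on the immature arrays, at 10.13, 9.999 and 10.29 in estrus, and at 10.20, 9.42 and 10.98 in diestrus. Car3 therefore differed more between diestrus 2 and diestrus 3 (by 1.57) than between the means of any of the groups.

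Of the droplet genes, Cidec shared the peak on immature 1 and the perilipins did not. Cidec, which fuses small droplets into large ones, stood at 9.28 on immature 1 and between 8.56 and 8.92 on the other 8 arrays; immature 2 and 3, at 8.78 and 8.74, lay within the mature range. Plin1, the perilipin that gates lipolysis in fat cells, stood at 9.02, 9.23 and 8.91 on the immature arrays, at 9.09, 8.84 and 8.99 in estrus, and at 8.87, 8.99 and 8.99 in diestrus. Plin4, a perilipin of nascent droplets, stood at 8.90, 9.02 and 8.96 on the immature arrays, at 9.15, 8.94 and 9.03 in estrus, and at 9.03, 9.06 and 9.10 in diestrus. Plin4 was lowest on immature 1 and highest on estrus 1, but this order rests on small differences. Estrus 1 was also the highest array for 6 of the 11 skeletal muscle markers, so its lead is not particular to Plin4. Skeletal muscle markers averaged 0.12 from their own medians on estrus 1 and -0.09 on estrus 2, and liver and kidney markers 0.12 and -0.12. Plin1 was likewise second highest on estrus 1 and lowest on estrus 2. The range over the 9 arrays was 0.39 for Plin1 and 0.26 for Plin4, against a median of 0.33 over all probe sets. No detection calls were used, so these flat values do not show that perilipin RNA was present and unchanged.

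The remaining pair were the enzyme Pck1 and the transcription factor Pparg. Pck1, the phosphoenolpyruvate carboxykinase that supplies glycerol for triglyceride in fat and glucose in liver and kidney, stood at 8.06, 8.17 and 7.98 on the immature arrays, at 8.28, 8.01 and 8.08 in estrus, and at 8.10, 8.11 and 8.28 in diestrus. It was below the median of its array on all 9 arrays, and the groups overlapped throughout. Without detection calls, so low a level limits what the flat values of Pck1 show. Pparg stood at 9.30, 9.43 and 9.06 on the immature arrays, at 9.27, 9.36 and 9.45 in estrus, and at 9.01, 9.04 and 9.01 in diestrus. The 3 diestrus arrays lay below all the others, the closest being immature 3.

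Spread within a group was the main feature of the leading genes. Between immature 1 and immature 3, pools of the same group, Retn differed by 1.39, Car3 by 1.28, Fabp4 by 1.03 and Adipoq by 0.75. By size of this difference they were 7th, 10th, 27th and 72nd of the 28214 probe sets, of which 29 (0.103%) were at least 1 higher on immature 1. Cidec differed by 0.55 and Lpl by 0.49, whereas Plin1 differed by 0.11, Pck1 by 0.08 and Plin4 by -0.06. The SD over the 3 immature arrays was 0.70 for Retn, 0.64 for Car3, 0.52 for Fabp4 and 0.38 for Adipoq, and all 4 were at the 99.21 percentile of all probe sets or above it. The median SD of the 10 genes was 0.27 in the immature group, against 0.07 over all probe sets. In estrus it was 0.10 for both. In diestrus it was 0.17 against 0.07, with Car3 at 0.78. For Retn, Adipoq, Fabp4, Car3 and Lpl the estrus SD was the lowest of the 3 groups, between 0.03 for Fabp4 and 0.14 for Car3; this was not so for the other 5 members.

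**Figure D2:**
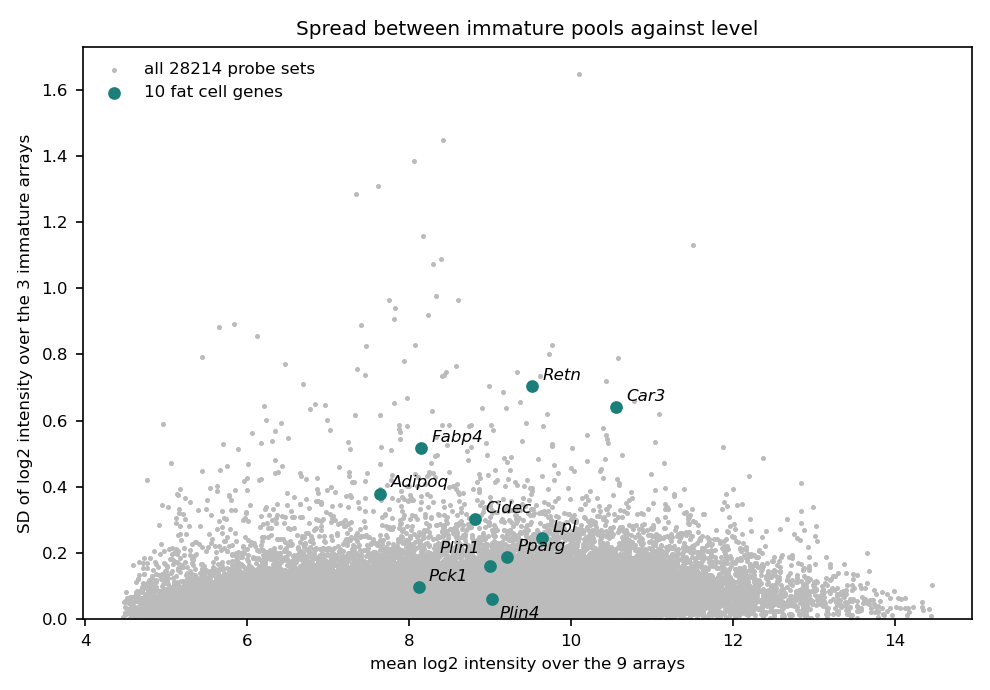
SD of log2 intensity over the 3 immature arrays (vertical axis) against mean log2 intensity over the 9 arrays (horizontal axis), for the 10 fat cell genes (green) and all probe sets (grey). Retn (0.70), Car3 (0.64) and Fabp4 (0.52) stand above the grey bulk, and Plin4 (0.06) lies within it.

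The first comparison asks how the oviduct of mature females in estrus differs from that of immature females. In estrus the mean of Retn was 9.25 ± 0.05 (SD, n = 3) against 10.14 ± 0.70 (SD, n = 3) in the immature group, a difference of -0.89 ± 0.29 (SE, limma's moderated test, adjusted p = 0.565). Car3 was 10.14 ± 0.14 against 11.32 ± 0.64, a difference of -1.18 ± 0.38 (limma, adjusted p = 0.558), with a 95% interval from -2.04 to -0.32. Adipoq differed by -0.47 ± 0.17, Fabp4 by -0.63 ± 0.23 and Lpl by -0.37 ± 0.14, with limma's adjusted p between 0.658 and 0.668. Without immature 1 these 5 differences were -0.58 for Retn, -0.86 for Car3, -0.27 for Adipoq, -0.37 for Fabp4 and -0.25 for Lpl. Cidec (-0.18), Plin1 (-0.08), Plin4 (0.09), Pck1 (0.05) and Pparg (0.10) differed by less. At an adjusted p under 0.05, 0 of 10 members were called, against 0.0851% of all probe sets. At an unadjusted p under 0.05 there were 5 of 10 (Retn, Adipoq, Fabp4, Car3 and Lpl), against 6.52% of all. For the same 5 genes no estrus array reached any immature array; 9.8% of all probe sets were separated in this way. The median difference was -0.28 over the members and 0.01 over all probe sets. The p-values measure the spread between these pools, which is the only replication present.

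**Figure D3:**
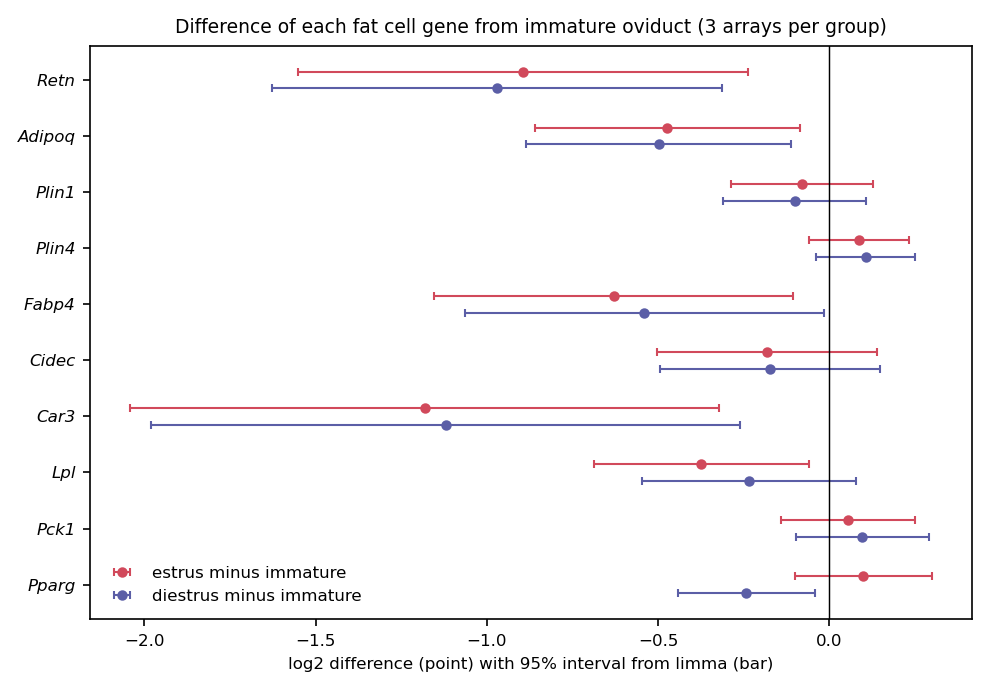
Fitted log2 differences between groups for the 10 fat cell genes, with 95% intervals from limma, for estrus minus immature (red) and diestrus minus immature (blue), each from 3 arrays per group. Car3 (-1.18 in estrus) and Retn (-0.97 in diestrus) lie farthest below 0. Plin4 and Pck1 in both comparisons, and Pparg in estrus only (0.10), lie slightly above it. No member passed the test.

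In diestrus against the immature group, Retn (9.17 ± 0.33, SD, n = 3, in diestrus) differed by -0.97 ± 0.29, with a 95% interval from -1.63 to -0.31 (limma, adjusted p = 0.179). Car3 differed by -1.12 ± 0.38, Fabp4 by -0.54 ± 0.23, Adipoq by -0.50 ± 0.17 and Lpl by -0.24 ± 0.14, with limma's adjusted p between 0.237 and 0.522. Without immature 1 the differences were -0.66 for Retn, -0.80 for Car3, -0.29 for Fabp4, -0.30 for Adipoq and -0.11 for Lpl. Pparg differed by -0.24 ± 0.09, from 9.26 ± 0.19 to 9.02 ± 0.02 (SD, n = 3; limma, adjusted p = 0.271). Members called numbered 0 of 10, against 1% of all probe sets, and at an unadjusted p under 0.05 there were 5 of 10 (Retn, Adipoq, Fabp4, Car3 and Pparg), against 13.4% of all. The arrays did not overlap for 3 of 10 members, Retn and Pparg lower and Plin4 higher, against 18.4% of all probe sets.

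Between the stages of the mature cycle the Retn group showed little difference of means. Diestrus minus estrus was -0.08 ± 0.29 for Retn, with a 95% interval from -0.73 to 0.58, and 0.06 ± 0.38 for Car3, with an interval from -0.80 to 0.92. Pparg differed by -0.34 ± 0.09, with an interval from -0.54 to -0.14; its limma p was 0.00357 and its adjusted p 0.207. It was lower on each of the 3 diestrus arrays than on any estrus array. Called members were 0 of 10, against 0.159% of all probe sets, and Pparg was the only member at an unadjusted p under 0.05, a level reached by 9.33% of all. It was also the only member with separated arrays, against 11.8% of all probe sets.

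Taking both mature groups together against the immature group, Retn differed by -0.93 ± 0.25 (limma, adjusted p = 0.212), Car3 by -1.15 ± 0.33, Fabp4 by -0.59 ± 0.20, Adipoq by -0.49 ± 0.15 and Lpl by -0.30 ± 0.12. The comparison called 0 of 10 members, against 0.432% of all probe sets. Retn, Adipoq, Fabp4, Car3 and Lpl were at an unadjusted p under 0.05, against 10% of all, and Retn was the only one of the 10 whose 6 mature arrays all lay below the 3 immature arrays, against 4.58% of all probe sets separated in either direction. The differences of Retn, Adipoq, Fabp4, Car3 and Lpl leaned on immature 1 and 2, for Car3 only in part. With both left out, Retn differed by -0.17, Adipoq by -0.13, Fabp4 by -0.06, Car3 by -0.52 and Lpl by -0.06. With immature 1 alone left out the values were -0.62, -0.29, -0.33, -0.83 and -0.18. Leaving out immature 3 instead gave -1.31 for Retn, with a limma adjusted p of 0.0486, and -1.35 in diestrus against immature, with an adjusted p of 0.0488.

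Other genes of fat cells were read from lists by role. Of 9 measured further secreted factors, 0 passed the test in any of the 4 comparisons, and their median difference between mature and immature was -0.02. Leptin (Lep), the satiety hormone of white fat, lay between 7.14 and 7.37 on all 9 arrays, without a peak on immature 1. These values were all below the lower quartiles of the arrays (7.61 to 7.77), and so low a level limits what they show. Rbp4, the carrier of retinol, stood at 9.90 on immature 1 and between 8.97 and 9.52 elsewhere. Of 11 further droplet and lipolysis genes 0 passed, with a median of -0.04, and the list's average stayed between -0.05 and 0.07 of its own medians on every array. Of 15 transcription factors and insulin response genes 0 passed, with a median of 0.01. Of 7 measured genes of fat progenitors and stroma 0 passed, with a median of -0.04; Pdgfra, the receptor that marks these cells, stood at 10.79 on diestrus 3 and between 9.48 and 9.72 elsewhere. All probe sets had a median of 0.01.

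Fatty acid uptake and synthesis genes gave 1 call. Fabp5, the fatty acid carrier of skin and many other cells, fell by 0.90 ± 0.16 in diestrus against immature (limma, adjusted p = 0.0362). It stood at 10.83, 10.31 and 10.53 on the immature arrays and at 9.80, 9.82 and 9.36 in diestrus, with no overlap. The call held in 1 of 9 fits that each left out 1 array (without diestrus 3), with adjusted p from 0.0421 to 0.119, and near-identical copies of Fabp5 in the genome may share its probes. Cd36, a fatty acid transporter of fat cells, capillaries and macrophages, stood at 8.02 and 7.86 on immature 1 and 2, at 6.88 on immature 3, and between 6.97 and 7.60 on the mature arrays. Its order over the immature pools was that of Retn. The uptake list averaged 0.18 above its own medians on immature 1 and 0.07 on immature 2. Of 11 genes of fatty acid synthesis 0 passed, and the median difference between mature and immature was -0.13. This list averaged 0.16 above its own medians on immature 1 and on immature 2, and between -0.14 and 0.03 elsewhere. In diestrus against immature, 6 of the 11 were lower at an unadjusted limma p under 0.05, a level reached by 13.4% of all probe sets in either direction. Scd1, the stearoyl-CoA desaturase, stood at 11.63, 11.47 and 11.23 on the immature arrays, at 10.90, 11.14 and 11.20 in estrus and at 11.03, 10.98 and 10.33 in diestrus.

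Markers of brown and beige fat did not follow immature 1. Ucp1, the uncoupling protein that defines these cells, lay between 7.54 and 7.64. This is near the lower quartiles of the arrays (7.61 to 7.77), and so low a level limits what its flat values show. Ppargc1a, a coactivator used by many tissues rich in mitochondria, rose by 0.50 ± 0.07 in diestrus against estrus (limma, adjusted p = 0.0281), the 1 call among 8 measured genes of this list. It stood at 9.01, 9.03 and 8.79 in estrus and at 9.49, 9.43 and 9.41 in diestrus; the call held in 2 of 9 fits that left out 1 array (without immature 1 or without diestrus 3), with adjusted p from 0.0446 to 0.143. Dio2, which activates thyroid hormone, stood at 11.04 on diestrus 3 against 8.68 to 9.45 elsewhere.

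Markers of other cell types did not share the peak of Retn on immature 1, with endothelium and mesothelium the nearest. The 10 endothelial markers averaged 0.14 above their medians on immature 1 and 0.40 on diestrus 3. Emcn, a capillary and venous surface protein, was 10.36 and 10.70 on those arrays and between 9.66 and 9.94 elsewhere. Fabp4, Lpl, Car3 and Retn were also the highest of their own group on these arrays. For Retn the lead on diestrus 3 was slight (9.363 against 9.358 on diestrus 1). On diestrus 3 the smooth muscle markers (0.72, 8 of 8 highest there) and macrophage markers (0.48, 8 of 10 highest there) stood further above their medians than endothelium; on immature 1 they were at -0.00463 and 0.07. The part of these cell types in the values was not tested. Ovary markers averaged -0.14 on immature 1 and 1.05 on immature 2. Inha, the inhibin subunit of granulosa cells, was 12.42 on immature 2. The 11 skeletal muscle markers stayed between -0.09 and 0.12 on all arrays. Liver and kidney markers averaged 0.34 above their medians on diestrus 2, where the median of the list was 0.19. Alb, the serum albumin gene, was 9.32 there against 7.42 to 7.68 elsewhere. Mesothelial markers, of the cells that line the mesosalpinx, were at 0.13 on immature 1 and between -0.23 and 0.20 over all arrays. The labels name oviduct only, and the part of attached fat or of these other tissues in the values was not tested.

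**Figure D4:**
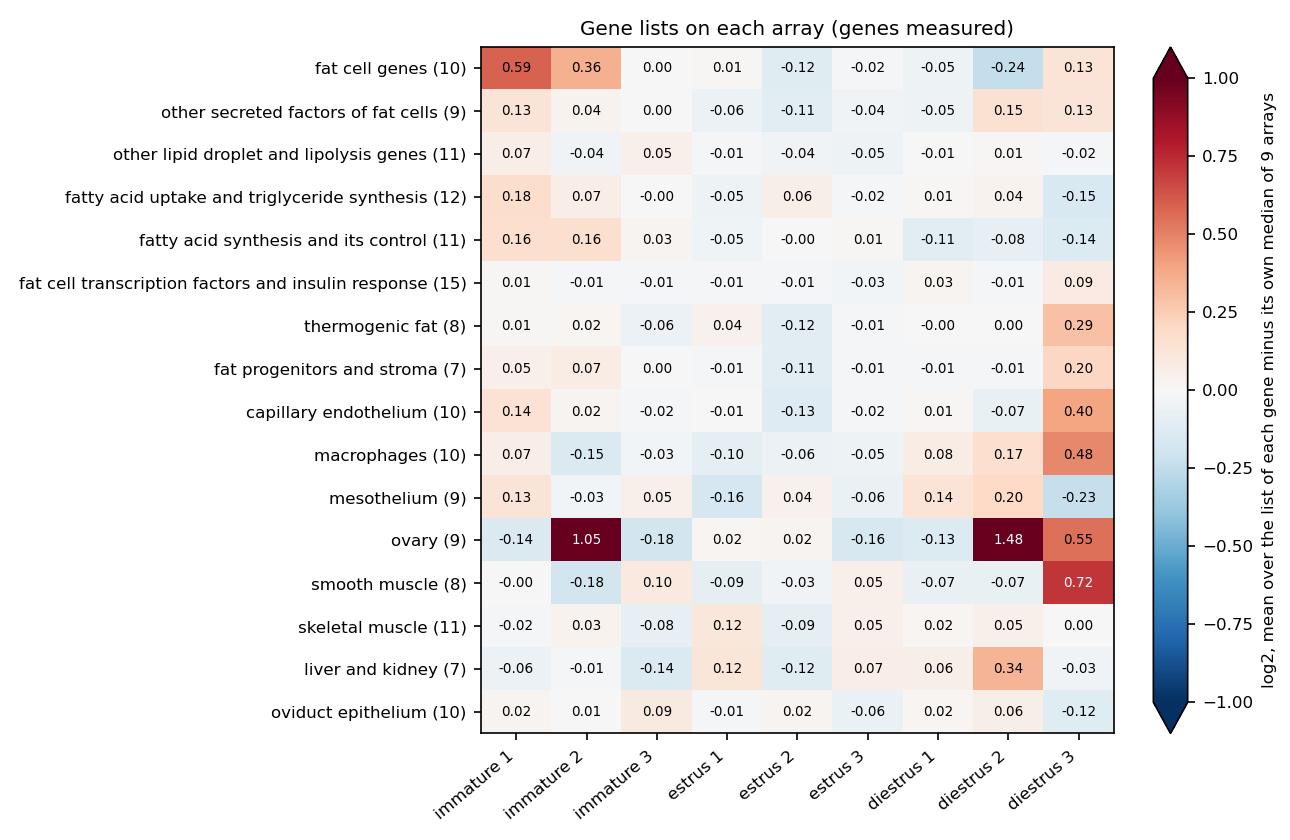
Average log2 difference of each gene list from its own gene medians (rows are lists, columns are the 9 arrays). The fat cell genes are highest on immature 1 (0.59) and immature 2 (0.36), ovary markers on immature 2 (1.05) and diestrus 2 (1.48), and smooth muscle markers on diestrus 3 (0.72).

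Over the 9 arrays, the pattern of Adipoq was closest to that of Retn among the members (Pearson r 0.973), then Fabp4 (0.942), Car3 (0.919), Cidec (0.821) and Lpl (0.718). The values were 0.338 for Plin1 and for Pparg, -0.140 for Pck1 and -0.565 for Plin4. Without the 2 arrays farthest from Adipoq's median, immature 1 and diestrus 2, r over 7 arrays was 0.915 for Retn, 0.764 for Fabp4, 0.742 for Car3, 0.636 for Plin1, 0.421 for Lpl, 0.222 for Cidec, 0.152 for Pparg, 0.0361 for Pck1 and -0.121 for Plin4. The likeness of Cidec thus rested on those arrays, and Plin1 was closer without them. Among 11662 other probe sets above the median level, the closest were Tcf7l1, a transcription factor of Wnt signalling (0.955, and 0.953 over 7 arrays), Mras, a small GTPase (0.947 and 0.804), and Igf2, a fetal growth factor (0.921 and 0.908). Each spanned far less than Retn, 0.36, 0.58 and 0.49 against 1.97. The next were 1700025G04Rik, Lmf2, which is related to the lipase maturation factor, Ldlrad3, Capns1, Cox6b2, St6galnac6 and Fbxo45, with r between 0.871 and 0.920. These values describe 9 arrays that share 3 group means.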

How the data were processed

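RNA of 9 oviduct pools was measured on Affymetrix arrays. The authors deposited log2 expression values made with Affymetrix Expression Console by RMA, which corrects background, quantile-normalises the arrays and summarises each probe set, per the submitters' processing notes; the sources used here name no version. Quantile normalisation gives the arrays 1 distribution of intensities before the summary, so only relative changes can be seen. After the summary the upper quartiles of the arrays still ran from 9.92 to 10.02. No detection calls were used. Probe sets were named from the platform annotation: 21640 had 1 symbol, 1321 several and 5253 none; only those with 1 symbol named genes. From the log2 values, all 28214 probe sets were fitted with limma 3.58.1 (R 4.3.3; 3 group means, 9 arrays, 6 residual and 3.60 prior degrees of freedom), and p-values were adjusted by Benjamini-Hochberg over all probe sets, with calls at an adjusted p under 0.05. The fitting was tested on simulated data. For arrays, the number of pools limits the precision.

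Genes named were all members; from each other list, those called, those with the largest range and those with the highest mean, from which a few are given; and the 10 genes most correlated with Adipoq. Members and lists were chosen with earlier results of these data known. Replicate numbers were shared by the groups, but same-numbered arrays did not deviate together (r from -0.29 to 0.17 over 9 pairs, 3 of them over 0.1), so they were not treated as pairs. Alternatives were a replicate block, a filter on low intensity, median centring, cyclic loess, array weights, an intensity trend with robust prior, only the groups compared, and leaving out arrays.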

Additional observations from a re-analysis of the deposited data

How the results depend on the processing

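Among the 10 genes, 0 were called in all 4 comparisons, and this held under the block, filter, centring, loess, trend and restricted fits (the filter kept 6 of the 10 members, not Adipoq, Fabp4, Cidec and Pck1). With array weights, which weighted estrus 3 by 8.16, the count was 2 in estrus against immature, 2 in diestrus against immature, 1 in diestrus against estrus (Pparg) and 1 in mature against immature. Leaving out 1 array gave 0 to 1 in diestrus against immature and in mature against immature, and 0 to 0 in the other comparisons. Over all probe sets the calls were 24, 282, 45 and 122 in estrus against immature, diestrus against immature, diestrus against estrus and mature against immature. With the replicate block they were 4, 121, 13 and 44; the block changed no call of a member, though Fabp5 and Ppargc1a were lost (adjusted p 0.0706 and 0.0723). With array weights they were 1023, 1288, 3331 and 578. The low intensity filter gave 12 in estrus against immature and 130 in diestrus against estrus, and cyclic loess 5 in estrus against immature. Fitting only the groups compared gave 85 in diestrus against immature and 0 in diestrus against estrus, where limma on all arrays had 45, and 2631 at an unadjusted p under 0.05. Leaving out 1 array gave 1 to 95, 41 to 533, 1 to 105 and 14 to 300.

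Settings chosen after seeing the data left out pairs of arrays. Without immature 1 and 2 (the lone immature array being assumed to vary like the others) the calls were 2, 4, 0 and 3. The sign then turned for Plin1 (0.063, 0.041 and 0.052 in estrus, diestrus and mature against immature), Cidec (0.015, 0.024 and 0.020), Lpl in diestrus (0.00467) and Pparg in mature (0.13). Without diestrus 2 and 3 diestrus against immature gave 12 calls and diestrus against estrus 1, and diestrus minus estrus turned for Retn (0.11), Adipoq (0.16), Plin4 (-0.015), Lpl (-0.085) and Pck1 (-0.027). Array weights turned Fabp4 (-0.079), Cidec (-0.049) and Car3 (-0.42) there. Leaving out 1 array turned, in diestrus minus estrus, Retn (-0.17 to 0.11), Adipoq (-0.12 to 0.10), Plin1 (-0.0907 to 0.0383), Plin4 (-0.0305 to 0.075), Fabp4 (-0.0807 to 0.25), Cidec (-0.089 to 0.0935), Car3 (-0.33 to 0.45) and Pck1 (-0.0182 to 0.12); against immature, Plin1 (-0.15 to 0.00717), Pck1 (-0.0245 to 0.11) and Pparg (-0.00367 to 0.18) in estrus, Cidec (-0.27 to 5e-04) in diestrus and Pparg (-0.17 to 0.00967) in mature. None of these values was called, and the cause was not tested. Centring moved the split of calls in estrus against immature from 9 higher and 15 lower to 5 and 18, and loess that in diestrus against immature from 83 and 199 to 82 and 123, and that in diestrus against estrus from 19 and 26 to 32 and 28.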
